A study of Mus musculus with 20 samples.

Results

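The miR-23, miR-27 and miR-24 clusters are a pair of short genomic stretches that each encode 3 microRNAs (miRNAs), small regulatory RNAs that bind messenger RNAs and reduce the protein made from them. The members described here are the mature arms mmu-miR-23a-3p and mmu-miR-27a-3p of the a cluster, mmu-miR-23b-3p and mmu-miR-27b-3p of the b cluster, and mmu-miR-24-3p, which both clusters make. The species prefix is left out from here on. They were chosen by name, as 5 of the 1881 mature mouse miRNAs on the array, by a rule that uses no measured value, although the set was picked with earlier results of these data known. They were read on 20 Agilent arrays in 1 colour, 1 array per sample, from total RNA of the ascending aorta with its atherosclerotic lesion. The mice were male, and every group, chow included, carried the double knockout that the labels give as Apobtm2Sgy/Ldltm1Her. The 2 arrays of week 0 came from mice on chow, and chow and high fat groups of 3 arrays each followed at weeks 6, 18 and 30, which the labels also give as the age. The series has no wild-type group. Whether samples came from separate animals is not stated, so a p-value reflects only how far these arrays scatter, and part of that scatter may be technical.

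As background, both clusters are expressed in blood vessels. In endothelial cells miR-23 and miR-27 favour the sprouting of new vessels by lowering Sprouty2 and Sema6A, inhibitors of growth factor signalling and of endothelial sprouting. miR-27 also lowers messenger RNAs of lipid handling, among them that of the cholesterol exporter ABCA1. miR-24 restrains endothelial growth through GATA2 and PAK4, and in macrophages it lowers the matrix protease MMP14.

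The mature sequences show what the arms share, and the capitals mark the seed, bases 2 to 8, which pairs with targets. They are RefSeq's (GRCm38.p6), which held 4 of the 5 members, all but miR-23b-3p. miR-128-3p, of the lipid list below, is added because its seed overlaps that of miR-27.
miR-23a-3p: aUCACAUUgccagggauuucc
miR-27a-3p: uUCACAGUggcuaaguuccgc
miR-27b-3p: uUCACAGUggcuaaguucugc
miR-24-3p: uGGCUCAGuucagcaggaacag
miR-128-3p: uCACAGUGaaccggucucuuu
miR-27a-3p and miR-27b-3p have the same seed and differ by 1 base, C19U, counted from the 5′ end of the mature miRNA. The seeds of miR-23a-3p and miR-27a-3p differ by U7G. The letters CACAGU are shared by the seeds of miR-27 and miR-128-3p, shifted by a base.

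Each member was read by 2 probes, and the DNA probes below, written 5′ to 3′, are those of equal length in each a and b pair. Capitals mark the base in which the partners differ, A3T for miR-23 and G3A for miR-27, with the a probe's base first and positions counted from the probe's 5′ end.
miR-23a-3p probe: ggAaatccctggcaatg
miR-23b-3p probe: ggTaatccctggcaatg
miR-27a-3p probe: gcGgaacttagccactg
miR-27b-3p probe: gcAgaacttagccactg
A single base thus separates the a signal from the b signal, and how far each probe also binds the partner was not tested. The probes of miR-24-3p match both clusters, so its level is that of both together.

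The probes of the a cluster lie on chromosome 8 of build mm9, chr8:86732466-86732795, a span of 330 bases. Those of the b cluster lie on chromosome 13, chr13:63401842-63402580, a span of 739 bases. In RefSeq's gene table of GRCm38.p6, the hairpins Mir23b, Mir27b and Mir24-1 lie within the span of the protein-coding gene Aopep, an aminopeptidase. No gene of that table held the hairpins Mir23a, Mir27a and Mir24-2.

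Between 316 and 742 miRNAs were detected per array. Markers of smooth muscle (miR-143-3p and miR-145a-5p) and of endothelium (miR-126a-3p) were detected on 20 of 20 arrays, as the labelled vessel tissue holds. Other markers of these types were detected less often, miR-143-5p and miR-126a-5p on 18 arrays and miR-145a-3p on 0. Striated muscle miR-1a-3p was also detected on 20 arrays, from 6.76 to 12.6 on the log2 scale, and red cell miR-451a on 20. Of the other striated muscle markers, miR-133a-3p and miR-133b-3p were detected on 20 arrays, miR-206-3p on 18, miR-208a-3p on 3 and miR-499-5p on 2. Red cell miR-144-3p was detected on fewer than 20. Arrays lay on 3 slides. Slide 1 held weeks 0 and 6, and slide 2 held chow at weeks 18 and 30 with high fat replicates 1 and 2 of week 18. Slide 3 held the third high fat array of week 18 and all 3 high fat arrays of week 30. At week 30 slide and diet cannot be told apart. On slide 3, replicates 2 and 3 of week 30 were nearly identical (SD of their log2 differences 0.18), and so was the week 18 array to replicate 2 of week 30 (0.19), although their groups differ. The next closest pair was chow replicates 1 and 2 of week 6, on slide 1. The median for arrays of 1 group and slide was 0.95, well above the SD of that pair too. Whether the 3 chow arrays of week 6 are separate readings was not tested. For 8 arrays the position in the description differed from that in the file, which would exchange the diets of the first chow and first high fat arrays of week 18. In bulk tissue, fewer cells of a type and less RNA per cell cannot be told apart.

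All 5 members were detected on every array, 100 of 100 readings. Levels are log2 intensities after scaling each array, and they are compared within a member, since probes of different members bind with different strength. miR-23a-3p ranged from 10.36 to 11.26 over the 20 arrays, with a median of 10.70. miR-24-3p ranged from 9.97 to 11.24, with a median of 10.72. miR-23b-3p ranged from 9.28 to 10.50, with a median of 9.88. The miR-27 arms had wider ranges. miR-27a-3p ranged from 8.92 to 10.67 and miR-27b-3p from 7.74 to 9.30. The 2 probes of each member gave the same picture, with a Pearson r over the 20 arrays between 0.97 and 0.99.

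**Figure D1:**
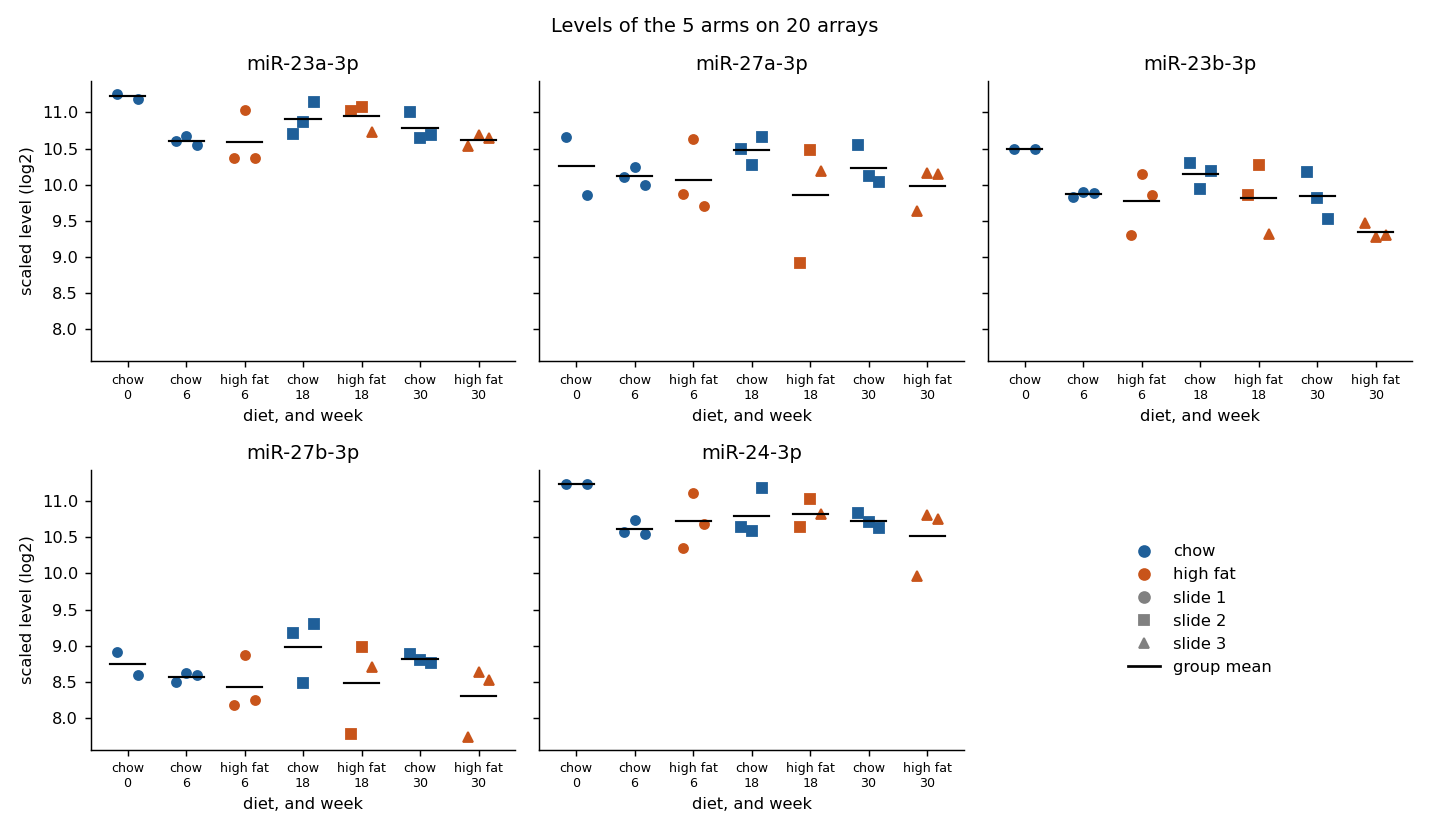
Scaled log2 level (vertical axis) of each member on the 20 arrays, by diet and week; points are arrays, colour is diet, shape is slide and the bar is the group mean. Week 0 lies highest for miR-23a-3p, miR-23b-3p and miR-24-3p, and the slide 3 arrays of miR-23b-3p lie between 9.28 and 9.47.

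The order of the group means was headed by week 0 for miR-23a-3p, miR-23b-3p and miR-24-3p, and by week 18 chow for both miR-27 arms. The 7 means of a member spanned from 0.61 (miR-27a-3p) to 1.14 (miR-23b-3p) on the log2 scale. For miR-27a-3p and miR-27b-3p, neighbours in the order overlapped in 6 of 6 cases. For miR-23a-3p and miR-24-3p they overlapped in 5 of 6, and the exception was week 0 above week 18 high fat. For miR-23b-3p they overlapped in 4 of 6, the exceptions being week 0 above week 18 chow and week 18 chow above week 6 chow. The share of all miRNAs without overlap was not computed between week 0 and either week 18 group. Whether the exceptions that involve week 0 are particular to the members was therefore not tested. For week 18 chow above week 6 chow the share is given below.

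The spread between replicate arrays was small. The SD within groups was 0.21 (log2) for miR-23a-3p, rank 1 from the lowest among the 192 miRNAs detected on all 20 arrays, whose median was 0.70. It was 0.29 for miR-24-3p (rank 2) and 0.29 for miR-23b-3p (rank 3). It was 0.39 for miR-27b-3p (rank 18) and 0.45 for miR-27a-3p (rank 31). These ranks belong to the scaled values: the same 192 miRNAs set the scale, and without scaling the members' SDs were 0.82 to 1.09 and their ranks 53 to 125. Under quantile normalization the ranks were 1 for miR-23a-3p, 6 for miR-23b-3p, 9 for miR-24-3p, 34 for miR-27b-3p and 39 for miR-27a-3p. With the percentile taken over all miRNAs the order among members changed: miR-23b-3p had the largest SD, 0.51 (rank 15), followed by miR-27a-3p with 0.48 (rank 11), miR-27b-3p with 0.44 (rank 6), miR-24-3p with 0.41 (rank 3) and miR-23a-3p with 0.39 (rank 2).

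**Figure D2:**
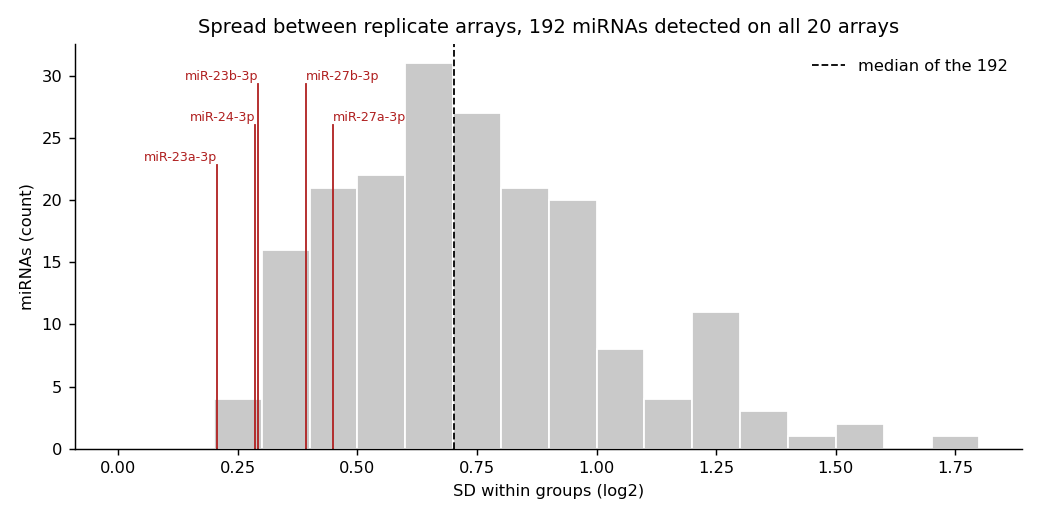
Histogram of the SD within groups (log2, horizontal axis) of the 192 miRNAs detected on all 20 arrays (vertical axis: count of miRNAs), with the members as red lines and the median as a dashed line. All 5 members lie below the median of 0.70, from 0.21 to 0.45.

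The first comparison asks whether the high fat diet moved the clusters at week 6. It did not move any member past the test: 0 of 5 were called at an adjusted p under 0.05 (limma, Benjamini-Hochberg over 609 miRNAs), where 18 of 609 miRNAs (2.96%) were called. At an unadjusted p under 0.05 it was 0 of 5, against 13% of the 609. The count of 18 was 8 without chow replicate 1, and 11 and 29 without high fat replicates 1 and 2. Differences between high fat and chow ran from -0.14 (SE 0.39) for miR-27b-3p to 0.11 (SE 0.34) for miR-24-3p. The 95% interval for miR-23a-3p was -0.67 to 0.63, or 0.630-fold to 1.55-fold, so 3 arrays a group leave differences of either sign possible. The interval is no limit of detection, since a call also had to pass the adjustment over 609 miRNAs. The high fat arrays of week 6 spread more widely, miR-23a-3p reading 10.36, 11.03 and 10.37 against 10.60, 10.67 and 10.55 on chow. The groups overlapped for all 5 members, while 15.9% of the 609 did not overlap in either direction.

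At week 18 the miR-27 arms and miR-23b-3p were lower on high fat on average, but none passed the test, 0 of 5 against 0% of all 609 miRNAs (at an unadjusted p under 0.05, 0 of 5 against 1.15%). miR-27a-3p read 10.49, 10.28 and 10.67 on chow and 8.92, 10.49 and 10.19 on high fat. miR-27b-3p read 9.18, 8.49 and 9.30 on chow and 7.78, 8.98 and 8.70 on high fat. For both arms the lowest reading was that of high fat replicate 1, 1 of the 2 arrays whose diet the description's position would exchange. The difference was -0.61 (SE 0.42, 95% interval -1.5 to 0.27, adjusted p = 0.954) for miR-27a-3p and -0.50 (SE 0.39, adjusted p = 0.954) for miR-27b-3p. It was -0.33 for miR-23b-3p, 0.04 for miR-23a-3p and 0.03 for miR-24-3p. No member's groups were apart, against 1.31% of the 609. Without high fat replicate 1 the difference was -0.14 for miR-27a-3p and -0.15 for miR-27b-3p, and with diets taken from the description's position it turned to 0.43 for each. Within slide 2, with high fat replicates 1 and 2 alone, miR-27a-3p differed by -0.77 and miR-23b-3p by -0.08. Without scaling between arrays the differences of all 5 members were positive, from 0.42 to 1.07.

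At week 30 both b cluster arms lay lower on high fat without overlap, in a comparison where many miRNAs did so. miR-23b-3p read 10.17, 9.82 and 9.53 on chow and 9.47, 9.28 and 9.31 on high fat. miR-27b-3p read 8.88, 8.81 and 8.77 on chow and 7.74, 8.64 and 8.52 on high fat. So each high fat array was below each chow array for these 2 of 5 members, while 25.5% of the 609 miRNAs lay lower without overlap. The difference was -0.49 for miR-23b-3p (1.4-fold, SE 0.34, 95% interval -1.21 to 0.23, adjusted p = 0.356) and -0.52 for miR-27b-3p (1.43-fold, SE 0.39, -1.34 to 0.30, adjusted p = 0.381). miR-27a-3p differed by -0.26, miR-24-3p by -0.22 and miR-23a-3p by -0.16, with overlapping groups.

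No member was called at week 30, 0 of 5 against 0% of 609 (at an unadjusted p under 0.05, 0 of 5 against 18.7%). The 3 high fat arrays were all on slide 3. In a fit with slide as a block, in which a single week 18 array links slide 3 to slide 2, the difference of miR-23b-3p turned to 0.25 (adjusted p = 0.823) and that of miR-27b-3p was -0.84 (adjusted p = 0.639). With limma's array weights miR-23b-3p was called (-0.57, adjusted p = 0.0211), in a fit that called 269 of all 609 miRNAs. The summed level of the myeloid markers miR-223-3p, miR-142a-3p and miR-142a-5p also lay apart at week 30, between 8.31 and 8.70 on chow and between 6.72 and 7.58 on high fat. That of the smooth muscle markers overlapped, 10.83 to 11.01 on chow and 10.35 to 11.26 on high fat, as did that of the endothelial markers, 10.85 to 11.93 and 9.32 to 11.15. The part of these markers in the members' values was not tested.

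Averaged over weeks 6, 18 and 30, the diet difference was negative for the 5 members and passed the test for none, 0 of 5 against 1 of 609 miRNAs (0.164%; 0 to 11 with 1 array left out), and at an unadjusted p under 0.05 0 of 5 against 17.2%. It was -0.39 for miR-27b-3p (SE 0.22, 95% interval -0.86 to 0.087, adjusted p = 0.331) and -0.31 for miR-23b-3p (SE 0.20, -0.72 to 0.11, adjusted p = 0.352). It was -0.31 for miR-27a-3p (SE 0.24). The a cluster arm miR-23a-3p (-0.046, SE 0.18) and miR-24-3p (-0.029, SE 0.20) were closest to 0, and their sign turned in at least 1 of the 4 other scalings. Exact permutation of the diets within weeks, 2-sided, gave p = 0.048 for miR-23b-3p and 0.049 for miR-27b-3p, which adjusted over the 609 miRNAs were 0.361 and 0.364. With slide as a block miR-23b-3p differed by 0.02, and with array weights it was called (-0.45, adjusted p = 0.0339), as were 189 of all 609 miRNAs. A change of the diet difference over time was called for 0 of 5 members by limma's moderated F test (smallest adjusted p = 0.801), against 0.985% of the 609.

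**Figure D3:**
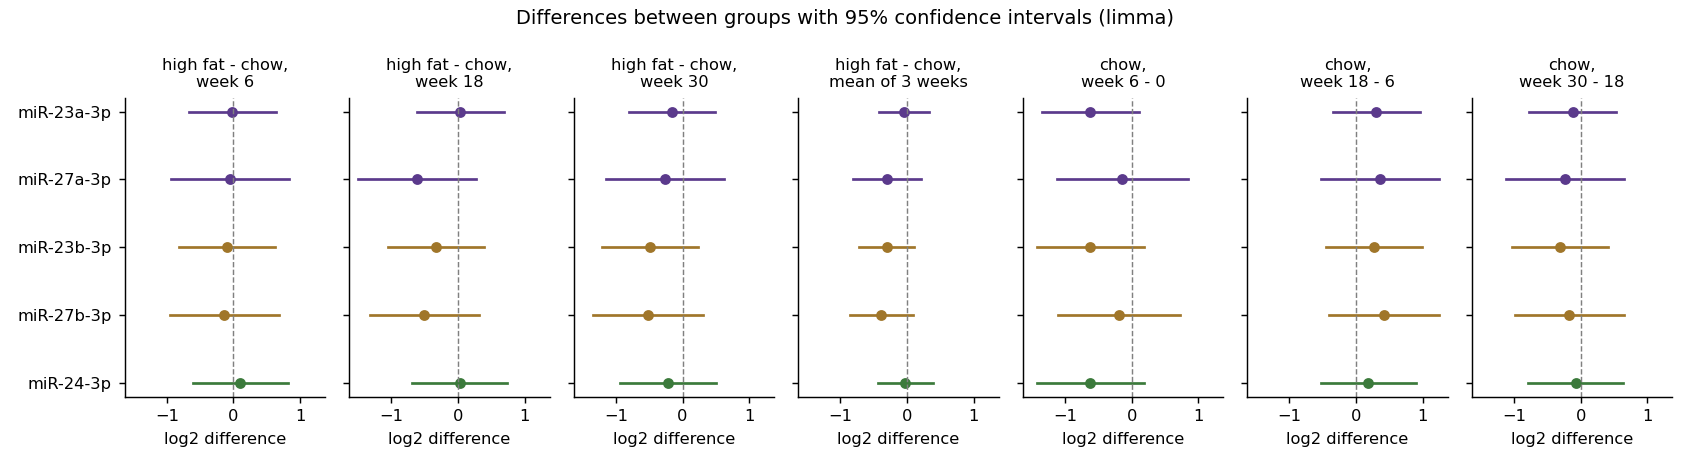
Log2 differences (horizontal axis, points) with 95% confidence intervals (lines) from limma for each member, between diets at 3 weeks and on average, and between successive weeks on chow; purple is the a cluster, brown the b cluster and green miR-24-3p. Every interval shown includes 0, and the points farthest below 0 are miR-23a-3p, miR-23b-3p and miR-24-3p from week 0 to week 6 (-0.62) and miR-27a-3p at week 18 (-0.61).

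The steps in time ask how the clusters behaved as the mice stayed on a diet. From week 0 to week 6 on chow, miR-23a-3p, miR-23b-3p and miR-24-3p each read 1.53-fold to 1.54-fold lower on average without overlap of the groups. miR-23a-3p read 11.26 and 11.19 at week 0 and 10.60, 10.67 and 10.55 at week 6. miR-23b-3p read 10.49 and 10.50, then 9.83, 9.90 and 9.89. miR-24-3p read 11.23 and 11.24, then 10.57, 10.73 and 10.54. Such non-overlap downward held for 75 of 609 miRNAs (12.3%). The difference was -0.62 for each, with an SE of 0.34 for miR-23a-3p (95% interval -1.34 to 0.11, adjusted p = 0.276), and 0.38 for miR-23b-3p (adjusted p = 0.342) and miR-24-3p (adjusted p = 0.338). The miR-27 arms differed by -0.14 (miR-27a-3p) and -0.18 (miR-27b-3p), and miR-27a-3p alone spanned 9.86 to 10.66 between the 2 week 0 arrays.

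None of the 5 was called, against 124 of 609 (20.4%), nor was any at an unadjusted p under 0.05 (28.6% of the 609). The count over all miRNAs rests on single arrays: it was 9 and 38 without week 0 replicates 1 and 2, and 17, 41 and 86 without week 6 chow replicates 1, 2 and 3. limma draws each SE toward the spread of all miRNAs, so the SE of these members is larger than their own replicates give. When only the week 0 and week 6 chow groups entered the fit, these 3 members were called, with adjusted p from 0.0329 (miR-23b-3p) to 0.0381 (miR-24-3p), as were 235 of the 509 miRNAs tested in it. When arrays were scaled by the percentile over all miRNAs, all 5 were called, with differences from -1.59 (miR-27a-3p) to -2.07 (miR-24-3p), as were 88 of the 609. The general shift depends on the scale too: the median difference of the 609 miRNAs was 0.58 under the main scaling and -0.51 under that one. In each of the 4 other scalings all 5 members kept a negative sign in this step. Markers of several cell types moved in this step, given here as summed levels at week 0 and then at week 6 on chow. Lower without overlap, as the 3 members were, lay smooth muscle (10.78 to 11.24, then 10.10 to 10.51), endothelium (11.71 to 12.38, then 10.88 to 11.54) and adipose tissue (11.46 to 12.34, then 10.87 to 11.24). Higher without overlap lay epithelium (5.41 to 5.62, then 8.94 to 10.68), the myeloid markers (8.97 to 9.99, then 11.17 to 11.73) and the liver marker miR-122-5p (3.09 on both arrays, then 3.99 to 4.52). Their part in the members' values was not tested.

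High fat at week 6 against the same week 0 arrays gave similar values, and the comparisons share those controls. The difference was -0.63 for miR-23a-3p, -0.72 for miR-23b-3p and -0.51 for miR-24-3p, again without overlap, against 30 of 609 miRNAs (4.93%) lower without overlap. It was -0.19 for miR-27a-3p and -0.32 for miR-27b-3p. Summed markers of adipose tissue lay lower (11.46 to 12.34, then 10.86 to 10.89), as did those of red cells (12.12 to 12.82, then 10.77 to 12.12), and those of striated muscle lay higher (8.87 to 11.93, then 12.32 to 13.31). Their part in these values was not tested. The smallest adjusted p was 0.531, and 0 of 5 members and 0% of 609 miRNAs were called (0 of 5 and 7.39% at an unadjusted p under 0.05).

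From week 6 to week 18 on chow, all 5 members had positive differences, from 0.18 (miR-24-3p) to 0.42 (miR-27b-3p). The median of the 609 miRNAs differed by -0.16. That of the 192 miRNAs detected on all 20 arrays, as the members were, differed by 0.25, within the members' range. miR-23a-3p (0.30), miR-23b-3p (0.27) and miR-27a-3p (0.36) did not overlap between the weeks, as 12 of 609 miRNAs (1.97%) in that direction. The sign held in the 4 other scalings, but none of the 5 was called (smallest adjusted p = 0.528), against 100 of 609 (16.4%), nor was any at an unadjusted p under 0.05 (30% of the 609). The count over all miRNAs was 48 and 58 without week 6 chow replicates 1 and 2, and 54 and 154 without week 18 chow replicates 1 and 2. These weeks lie on different slides. With slide as a block, miR-23b-3p turned to -0.47 and miR-23a-3p to -0.01. With diets taken from the description's position, miR-27a-3p turned to -0.17 and miR-27b-3p to -0.05. Without week 18 chow replicate 3, miR-24-3p turned to -0.004. With array weights miR-23a-3p (0.48), miR-27b-3p (0.66) and miR-24-3p (0.47) were called, as were 360 of all 609 miRNAs. Summed smooth muscle markers lay higher without overlap (10.10 to 10.51 at week 6, then 10.61 to 11.38). Lower lay those of myeloid cells (11.17 to 11.73, then 7.29 to 9.35), lymphocytes (8.19 to 8.71, then 6.94 to 8.06), red cells (12.46 to 13.09, then 8.73 to 12.31) and liver (3.99 to 4.52, then 3.09 to 3.32). Their part was not tested.

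The later steps gave no call. On chow from week 18 to week 30 the differences ran from -0.31 (miR-23b-3p) to -0.073 (miR-24-3p), and without scaling between arrays all 5 turned positive. Groups were apart for 0 of 5 members, against 3.28% of the 609. On high fat from week 6 to week 18 they ran from -0.20 (miR-27a-3p) to 0.36 (miR-23a-3p), with groups apart for 0 of 5 members and 1.15% of the 609. From week 18 to week 30 on high fat miR-23b-3p differed by -0.47 and miR-27a-3p by 0.12. miR-23a-3p differed by -0.32 in that step without overlap, as 27 of 609 miRNAs (4.43%) in that direction. Summed markers of myeloid cells (7.83 to 9.91, then 6.72 to 7.58) and of red cells (11.02 to 11.73, then 9.21 to 10.95) lay lower in it too, and their part was not tested. All week 30 arrays of this step lay on slide 3, but only replicate 3 of week 18 did. The miR-23b-3p reading of that single array lay inside the range of week 30, so the fall was not seen within the slide. Its miR-27a-3p reading lay above all of week 30, opposite to the sign of the step. Its miR-23a-3p reading also lay above all of week 30, as in the step. None of the 5 was called in these 3 steps, and 0% of the 609 were called in each. At an unadjusted p under 0.05 it was 0 of 5 each time, against 0.985%, 10% and 2.96% of the 609.

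The a and b arms were set against each other on each array, which removes the scaling. The ratio carries the probes' own strength, so its size is no ratio of molecules and only its change is read. Over the 20 arrays, miR-23a-3p minus miR-23b-3p ran from 0.40 to 1.41 (log2), and miR-27a-3p minus miR-27b-3p from 1.14 to 1.89. The miR-23 ratio averaged 0.73 at week 0 and 0.73 on chow at week 6. On high fat it was 0.81 ± 0.27 (SD, n = 3) at week 6, 1.13 ± 0.30 at week 18 and 1.27 ± 0.18 at week 30. On chow it was 0.76 ± 0.31 (SD, n = 3) at week 18 and 0.94 ± 0.19 at week 30. The mean was higher on high fat at each of the 3 weeks, with overlapping groups each time.

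**Figure D4:**
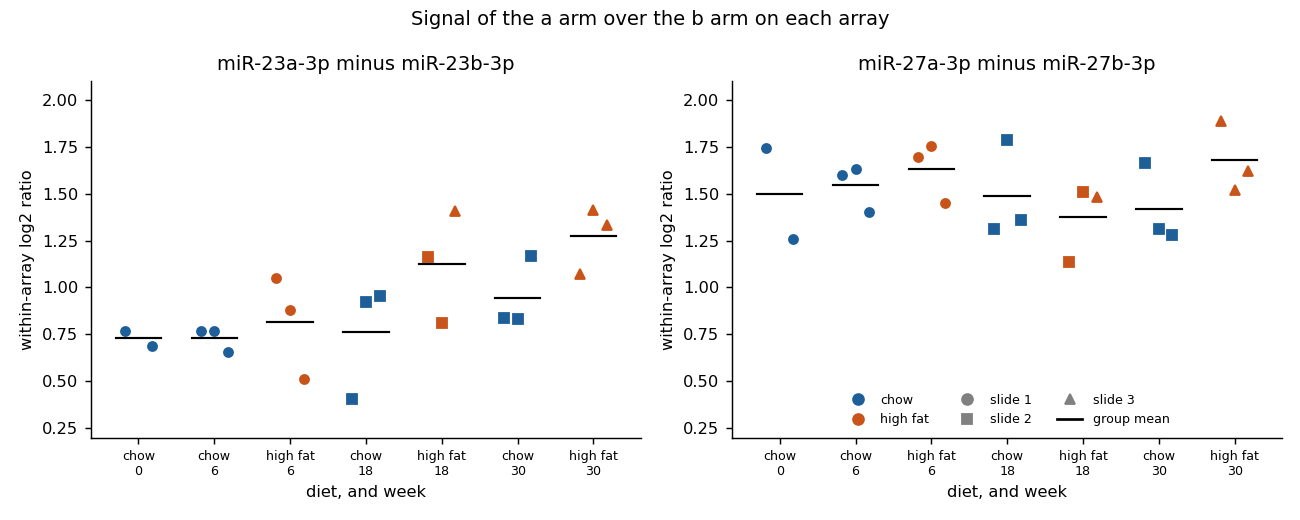
Within-array log2 ratio (vertical axis) of the a arm over the b arm for miR-23 (left) and miR-27 (right), by diet and week; points are arrays, colour is diet, shape is slide and the bar is the group mean. The 4 slide 3 arrays of the miR-23 ratio lie between 1.07 and 1.41, and those of the miR-27 ratio lie between 1.48 and 1.89, against 1.14 to 1.79 on slide 2.

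The mean diet difference of the miR-23 ratio was 0.26 (exact permutation within weeks, 2-sided, p = 0.032), which adjusted over the 20 ratio tests was 0.64. It was 0.09 at week 6 (exact permutation p = 0.7), 0.37 at week 18 (p = 0.3) and 0.33 at week 30 (p = 0.2), where 3 against 3 arrays allow no p under 0.1. The ratio differed by slide, with means of 0.76 on slide 1, 0.89 on slide 2 and 1.31 on slide 3, which held high fat arrays only. Within slide 1 the week 6 difference was 0.09, and within slide 2 the week 18 difference was 0.22. When the 3 nearly identical arrays of slide 3 were left out, the mean difference was 0.15 (exact permutation p = 0.235). It was 0.27 (exact permutation p = 0.0158) from the probes of equal length and 0.091 (exact permutation p = 0.49) with diets taken from the description's position.

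The miR-27 ratio did not differ detectably with diet, 0.079 on average (exact permutation p = 0.421, adjusted 0.857). Its group means lay between 1.38 (week 18 high fat) and 1.68 (week 30 high fat), and its slide means were 1.57, 1.42 and 1.63. Between those high fat weeks it differed by 0.30 without overlap (exact permutation p = 0.1, the smallest that 3 against 3 allow). No other ratio comparison between a pair of groups was without overlap.

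Across the 20 arrays the miR-27 arms followed each other most closely, and the miR-23 arms had a higher r with each other than either had with the miR-27 arm of its own cluster. Pearson r of the log2 levels was 0.88 between miR-27a-3p and miR-27b-3p and 0.71 between miR-23a-3p and miR-23b-3p. Within the a cluster it was 0.37 between miR-23a-3p and miR-27a-3p, and within the b cluster 0.49 between miR-23b-3p and miR-27b-3p. miR-24-3p had r from 0.53 (miR-27a-3p) to 0.78 (miR-23a-3p). Taken as deviations from the group means, the pairs of like sequence had 0.88 and 0.63. The miR-23 and miR-27 arms of the same cluster had 0.46 and 0.29. miR-24-3p, which both clusters make, had a within-group r above 0.63 with miR-27b-3p, miR-23a-3p and miR-27a-3p, and below it with miR-23b-3p. So not every pair from the same cluster followed each other less closely than the miR-23 arms did. These are descriptions over 20 arrays that share a scaling, and the partners' probes differ by the 1 base shown above.

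**Figure D5:**
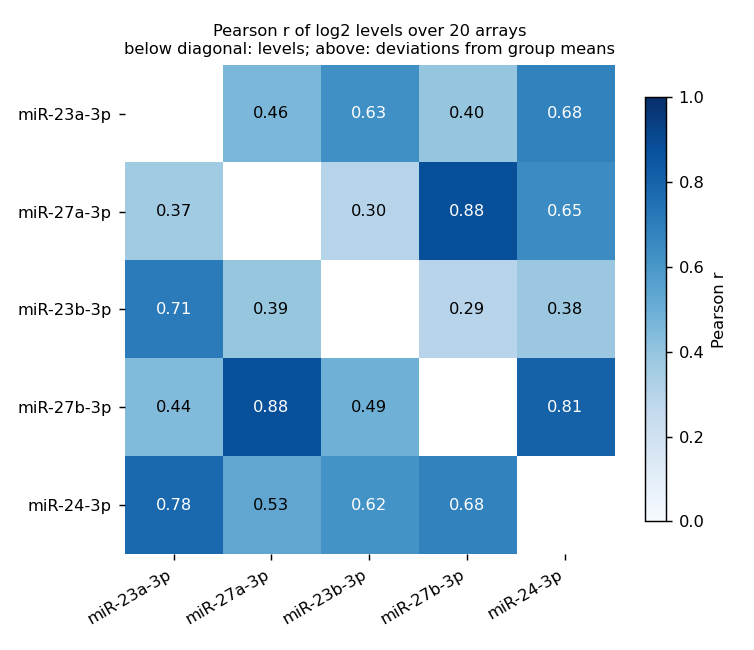
Pearson r over the 20 arrays for each pair of members (rows and columns, colour scale 0 to 1), from log2 levels below the diagonal and from deviations from group means above it. The miR-27 pair has 0.88 on both sides, and the cluster neighbours miR-23b-3p and miR-27b-3p have 0.49 and 0.29.

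Among the other 187 miRNAs detected on all arrays, those with the most alike pattern over the 20 arrays differed from member to member. For miR-23b-3p they were miR-100-5p (r = 0.87), miR-26a-5p (0.87) and miR-99a-5p (0.84). For miR-24-3p they were miR-130a-3p (0.82), miR-195a-5p (0.80) and miR-199a-3p (0.78). For miR-23a-3p they were miR-30a-3p (0.64), miR-29a-3p (0.62) and miR-497a-5p (0.61). For miR-27a-3p they were miR-30e-5p (0.69), miR-466h-3p (0.68) and miR-574-3p (0.66), and for miR-27b-3p miR-140-5p (0.64), miR-29c-3p (0.63) and miR-143-3p (0.62). The median r of a member with the 187 lay between -0.25 and -0.12.

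The other arms of the same hairpins were near or under the detection limit. miR-23b-5p, miR-27a-5p and miR-27b-5p were not detected on any array, and miR-24-1-5p on 4. miR-24-2-5p was detected on 12 arrays (at most 4.79) and miR-23a-5p on 9 (at most 5.10). Of the 6 other arms 2 could be tested, and none was called in any comparison. At week 30 miR-23a-5p read 3.09, 3.30 and 3.09 on chow, at or just above the floor of 3.09 given to low signals, and 4.73, 4.38 and 4.23 on high fat. The high fat arrays of that week lay on slide 3 and the chow arrays on slide 2, so slide and diet cannot be told apart. The difference of 1.29 (SE 0.44, adjusted p = 0.167) was not called. Its sign is opposite to that of miR-23a-3p from the same hairpin (-0.16).

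Of 10 other angiogenic and vessel wall miRNAs all were tested and none was called in any comparison. At week 30 their median difference was -0.55, against -0.13 over all 609, and it was -0.10 for the mean diet difference. miR-21a-5p, abundant in injured vessels, differed by -1.74 (SE 0.78, adjusted p = 0.258), endothelial miR-126a-5p by -1.46 (adjusted p = 0.272) and smooth muscle miR-145a-5p by 0.66 (SE 0.34, adjusted p = 0.283). From week 0 to week 6 on chow the list's median was -0.35.

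Of 8 other regulators of lipid and cholesterol genes 6 were tested, and calls fell on 2 of them. miR-128-3p, whose seed overlaps that of miR-27, rose from week 0 to week 6 on chow by 3.85 (SE 0.59, adjusted p = 6.06e-04). It then fell by 5.06 on the log2 scale to week 18 (adjusted p = 7.2e-06). miR-128-3p was lower on high fat at week 6 by a difference of -3.70 (adjusted p = 2.71e-04). Its diet difference changed over time (moderated F test, adjusted p = 0.0114). All these calls for miR-128-3p share the week 6 chow group, so they are not separate findings. Its mean there was above those of week 0, week 18 chow and week 6 high fat. That group holds the closely alike pair of chow arrays named above. miR-106b-5p, of a cluster related to miR-17, fell by 2.0 on the log2 scale from week 6 to week 18 on chow (adjusted p = 0.0198). miR-27a-3p and miR-27b-3p differed by at most 0.42 in size in the same 3 comparisons.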

How the data were processed

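Each spot's deposited value is an intensity on a linear scale. The submitters' processing notes name Agilent Feature Extraction 11.5.1. Outlier pixels had been rejected and background and spatial trend removed, per the file headers. The value table repeats this intensity on all 20 columns. Control spots and outlier-marked spots (1370 to 2199 per array) were dropped here, and 0 were saturated. A probe's value is the mean of its spots, and a miRNA's the mean of its probes. Detection on an array needed at least 0.5 of the usable spots of 1 probe well above background. Each array was scaled to its 75th percentile over 192 miRNAs detected on all arrays, floored at 3.09 and taken to log2. limma 3.58.1 (R 4.3.3) fitted 7 group means to all 20 arrays (13 residual degrees of freedom) for the 609 miRNAs detected throughout at least 1 group, 2-sided, Benjamini-Hochberg at 0.05. The a over b ratios had exact permutation tests, 20 in all. The scripts were tested on simulated data. The members and lists were chosen with earlier results of these data known. The rule for named miRNAs takes the members, their other arms, up to 3 of smallest p from each list, and the 3 most alike per member. miR-23a-5p at week 30 and the marker miRNAs were singled out after their values were seen. Alternatives covered scaling, background, floor, probes, blocks, weights and left-out arrays. Array number limits the precision.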

Additional observations from a re-analysis of the deposited data

How the results depend on the processing

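The main count of called members was 0 in all 11 comparisons, and it stayed 0 under every alternative run except these. Array weights, whose estimation stopped short of its convergence tolerance, gave 1 called member for diet at week 30, 1 for the mean diet difference, 3 from week 0 to week 6 and 3 from week 6 to week 18 on chow, where it called 269, 189, 268 and 360 of all 609 miRNAs. For week 0 to week 6 on chow, scaling by the percentile over all miRNAs gave 5 (88 of all 609), a fit on only the groups compared gave 3 (235 of 509), and leaving out the 4 arrays with the fewest detected miRNAs gave 1 (miR-23a-3p, -0.62, adjusted p = 0.05, with 202 of 740). Averaging the near-identical arrays called 0 members and 11 of 609 miRNAs in that step. Leaving out 1 array at a time called 0 members in each comparison. Of 1537 recomputed differences and ratios, none of them called in the main analysis, 140 had the other sign, 51 of them among the 490 with 1 array left out.

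Replicate numbers were shared between groups, but same-numbered arrays of the 2 diets did not deviate together throughout (r from -0.46 to 0.68, over 0.1 in 6 of 9 pairs). The deviations of 3 arrays from their own mean are tied to each other. These values therefore cannot decide whether equal numbers stand for pairs, and the main fit did not pair them. With the replicate block, 0 members were called in any comparison, and miR-23a-3p from week 0 to week 6 on chow was -0.59. The probes of equal length, the fits within slide 3 and without its 3 near-identical arrays, the spread under other scalings and the permutation test over all miRNAs were chosen after seeing the data. By that permutation test, 0 of 609 miRNAs were called for the mean diet difference.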
